A study of Mus musculus with 17 samples.

Results

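Cholesterol is made and handled by a set of enzymes, regulators and carriers, and 30 of their genes were followed here in whole mouse embryos. The genes are listed by their roles: 20 enzymes of sterol synthesis, 4 regulators of the pathway, 5 genes of sterol transport and storage, and Acly, which supplies acetyl-CoA. All 30 were found among the 41709 gene symbols of the table. Each of the 17 libraries held the RNA of a single C57BL/6J embryo. At E9.5, 4 embryos were compound mutants with the Disp1 alleles CS and INDEL (Disp1_CS_INDEL), from Disp1 CS/+ females and Disp1 INDEL/+ males, and 4 were wild type (Disp1_WT). At E8.5, 5 embryos had the Myo10 allele m1J on both chromosomes (Myo10_m1J), from parents that each carried 1 such allele, and 4 were Myo10 wild type (Myo10_WT). Litter membership is not labelled, so p-values measure the spread between these embryos. Both comparisons ask what differs in the transcriptome of embryos that carry the mutant alleles.

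Cholesterol synthesis starts from acetyl-CoA, passes through mevalonate and the isoprenoid farnesyl diphosphate to squalene, closes squalene into lanosterol and then trims lanosterol to cholesterol. When membranes of the endoplasmic reticulum are poor in sterol, SCAP escorts the transcription factor SREBP2 to the Golgi, where it is cleaved and then raises transcription of the synthesis genes, whereas INSIG proteins hold the complex back when sterol is plentiful. The pathway matters for Hedgehog signalling because cholesterol is attached to the Hedgehog ligand, because Dispatched (Disp1) and Patched carry sterol-sensing domains, and because sterols bind Smoothened. In humans, loss of the Dhcr7 enzyme causes Smith-Lemli-Opitz syndrome, with malformations of the face, brain and limbs.

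Promoters are printed for 5 members, chosen after their values were seen: 3 enzymes and the regulator Insig1 that varied together between embryos, and Ggps1, which did not. Each line gives the 160 bases before the RefSeq start of the gene (build GRCm38.p6, which is not the build of the deposited table), 5′ to 3′ on the strand of the gene. Capitals mark the letters TCACNCCAC or CACNCCAC (forms of the sterol regulatory element that SREBP proteins bind), CCAAT (bound by NF-Y) and GGGCGG (bound by Sp1), searched on both strands. The Hmgcs1 window lies at chr13:119690191-119690350 on the plus strand, Cyp51 at chr5:4104698-4104857 on the minus strand, Msmo1 at chr8:64733579-64733738 on the minus strand, Insig1 at chr5:28071252-28071411 on the plus strand and Ggps1 at chr13:14063489-14063648 on the minus strand.
Hmgcs1: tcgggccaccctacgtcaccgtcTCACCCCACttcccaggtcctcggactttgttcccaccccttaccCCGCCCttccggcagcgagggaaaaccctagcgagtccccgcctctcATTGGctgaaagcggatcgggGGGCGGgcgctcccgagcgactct
Cyp51: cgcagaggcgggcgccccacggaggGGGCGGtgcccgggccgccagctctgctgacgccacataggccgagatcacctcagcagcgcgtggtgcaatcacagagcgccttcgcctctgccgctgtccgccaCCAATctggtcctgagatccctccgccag
Msmo1: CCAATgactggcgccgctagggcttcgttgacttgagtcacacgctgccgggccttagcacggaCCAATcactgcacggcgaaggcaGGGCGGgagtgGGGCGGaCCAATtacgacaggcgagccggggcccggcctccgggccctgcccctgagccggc
Insig1: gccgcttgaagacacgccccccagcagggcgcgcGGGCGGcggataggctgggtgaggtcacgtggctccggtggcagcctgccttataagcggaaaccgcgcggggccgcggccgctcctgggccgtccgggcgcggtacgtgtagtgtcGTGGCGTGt
Ggps1: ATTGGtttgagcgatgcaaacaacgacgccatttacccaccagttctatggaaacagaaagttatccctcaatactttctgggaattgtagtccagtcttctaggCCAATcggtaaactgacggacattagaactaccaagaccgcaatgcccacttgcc
In the full RefSeq windows, from 250 bases before to 50 bases after the start, 25 of the 30 members had an entry. CCAAT was present in 23 of the 25 members (92%), against 41.1% of all 27025 genes with a window and 43.3% of the 10669 of them that reached 1 TPM in at least 4 libraries. GGGCGG was also present in 23 of 25 (92%), against 38.2% of all genes and 69.4% of the expressed ones. The members without CCAAT were Acat2 and Scap, and those without GGGCGG were Pmvk and Ggps1. The window of Dhcr7 is not printed. The 160 bases before its most upstream start hold GGGCGG on the other strand and none of the other marked letters. CCAAT lies before another start of Dhcr7. TCACNCCAC occurred only in Hmgcs1 among the 25 (4%, against 1.44% of all genes), and the shorter CACNCCAC, which lies within it, in Acat2, Hmgcs1 and Insig1 (12%, against 7.12%). A match of letters is a description of the window and not a binding site.

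Values are TPM, transcript levels scaled to gene length and to the same total in every library. Levels of different genes can thus be compared, but read depth is not known. The targeted transcripts were read first. Myo10 stood at 4.35, 4.31, 3.59, 2.16 and 3.64 TPM in Myo10_m1J embryos and at 33.9, 26.6, 23.0 and 19.9 TPM in Myo10_WT embryos, without overlap. Disp1 stood at 16.3, 14.8, 14.5 and 11.6 TPM in Disp1_CS_INDEL embryos and at 18.4, 19.3, 17.2 and 15.3 TPM in Disp1_WT embryos, with overlap, so the Disp1 transcript level does not check those labels. In each group at least 4 of 5 neural tube markers and 3 of 4 heart markers were at 1 TPM or more in every library, and 13103 to 13408 genes reached that level in E9.5 and 11926 to 12957 in E8.5 libraries. At E9.5, Disp1_CS_INDEL replicate 1 and Disp1_WT replicate 3 stood apart in tail bud markers (mean log2 1.18 and 0.90, against 3.89 to 4.43 in the other E9.5 libraries), and Disp1_WT replicate 3 also in yolk sac markers (5.51, against 1.75 to 2.51) and in decidua and trophoblast markers (4.87, against 2.01 to 3.03). All 6 tested genes of the decidua and trophoblast list had a negative fold change in Disp1_CS_INDEL relative to Disp1_WT embryos (median -0.80). So did all 7 tested genes of the yolk sac list (median -1.14), against 43.7% of all genes. None of them passed the test, and Disp1_WT replicate 3, which was high in both lists, is among those wild types.

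Of the 30 genes, Acly was the most abundant in all 4 groups, at 278 ± 38.7 TPM in Disp1_CS_INDEL, 281 ± 23.6 in Disp1_WT, 160.3 ± 6.33 in Myo10_m1J and 168 ± 15.8 in Myo10_WT embryos (SD, n = 4, 4, 5 and 4). Tm7sf2, a sterol reductase of the late pathway, was the least abundant, at 8.60 ± 2.97, 8.93 ± 1.75, 2.40 ± 0.278 and 2.57 ± 0.431 TPM in those groups. The order differed between the E9.5 and E8.5 groups, which also differ in cross and library composition. Acat2 and Hmgcs1 came next after Acly in both E9.5 groups, whereas Lbr came next in both E8.5 groups. Lbr is another sterol reductase of the late pathway and also a protein of the inner nuclear membrane. Lbr stood at 95.7 ± 5.74 and 106 ± 3.30 TPM in Disp1_CS_INDEL and Disp1_WT embryos and at 100.5 ± 13.5 and 102 ± 9.68 TPM in Myo10_m1J and Myo10_WT embryos. Lbr, which catalyses the same step as Tm7sf2, was the higher of the pair in each of the 17 libraries.

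**Figure D1:**
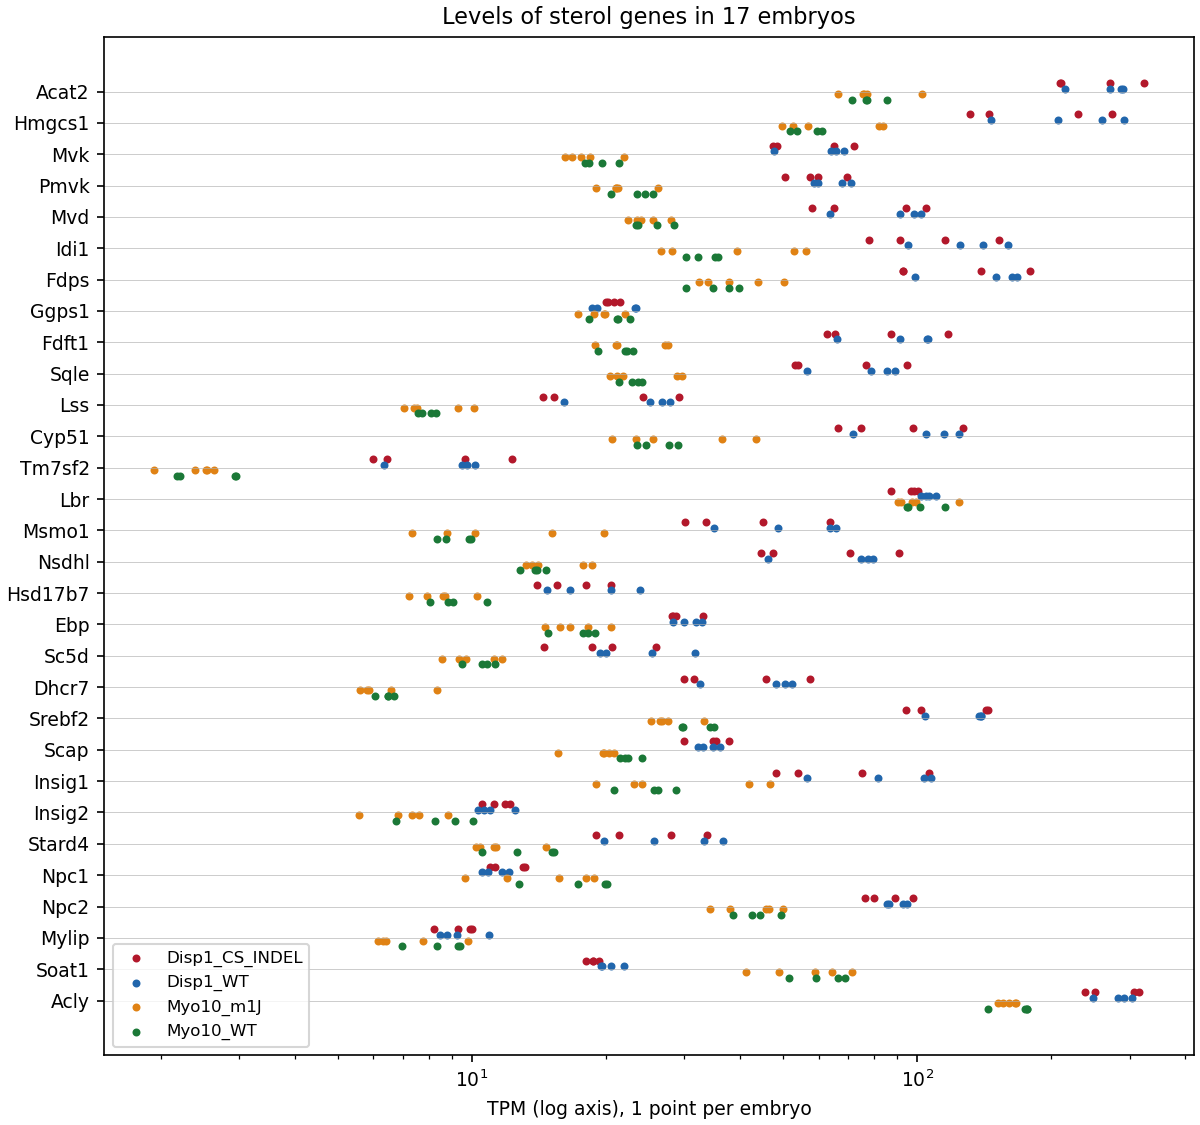
TPM of each of the 30 genes on a log axis, 1 point per embryo, coloured by group (Disp1_CS_INDEL, Disp1_WT, Myo10_m1J, Myo10_WT). Most genes lie further right in the 8 E9.5 embryos than in the 9 E8.5 embryos, Lbr and Ggps1 overlap, and Soat1 lies further left at E9.5.

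Embryos of the Disp1 cross differed more among themselves in sterol synthesis genes than the mutants differed from the wild types. None of the 30 genes passed the test between Disp1_CS_INDEL and Disp1_WT embryos (limma on log2(TPM + 1), adjusted p under 0.05), against 0.0301% of the 13294 genes tested, and Lbr was the only member with an unadjusted p under 0.05, as were 2.26% of all genes. All 20 synthesis genes had a negative fold change, as did 26 of the 30 members, against 43.7% of all genes, with a member median of -0.14 against 0.01 for all genes. That median was -0.24 without Disp1_CS_INDEL replicate 2, -0.23 without Disp1_WT replicate 4, -0.09 without either Disp1_WT replicate 2 or 3, -0.05 without either Disp1_CS_INDEL replicate 3 or 4, and -0.05 with the yolk sac mean as a covariate. Without the pair of libraries that stood apart in tail bud markers it was -0.14, with 27 negative and 0 called. In whole embryos, fewer cells of a type and less RNA per cell cannot be told apart.

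Most mevalonate enzymes had the same embryos at the bottom. Hmgcs1, the synthase that makes HMG-CoA, stood at 229, 273, 131 and 144 TPM in Disp1_CS_INDEL replicates 1 to 4 and at 207, 291, 260.0 and 147 TPM in Disp1_WT replicates 1 to 4. Disp1_CS_INDEL replicates 3 and 4 and Disp1_WT replicate 4 were the 3 lowest of the 8, while the other embryos of both groups lay intermingled. Idi1, which isomerises isopentenyl diphosphate, stood at 115, 153, 77.9 and 91.5 TPM in Disp1_CS_INDEL and 124, 159.9, 140.2 and 95.3 TPM in Disp1_WT embryos. Fdps, which makes farnesyl diphosphate, stood at 139, 179, 92.9 and 92.6 TPM in Disp1_CS_INDEL and 150.3, 163, 168 and 98.8 TPM in Disp1_WT embryos. Both had the same 3 embryos lowest. Acat2, which joins acetyl-CoA units, stood at 271, 323, 209 and 210.4 TPM in Disp1_CS_INDEL and 271, 290.2, 286 and 215 TPM in Disp1_WT embryos. Mvk, mevalonate kinase, stood at 64.8, 72.1, 48.5 and 47.4 TPM in Disp1_CS_INDEL and 65.8, 64.1, 68.6 and 47.6 TPM in Disp1_WT embryos. Mvd, which removes the carboxyl group of mevalonate diphosphate, stood at 94.4, 104, 65.1 and 57.9 TPM in Disp1_CS_INDEL and 91.5, 102, 98.2 and 63.7 TPM in Disp1_WT embryos. These 3 also had those embryos lowest. Pmvk, phosphomevalonate kinase, had a narrower range, 59.8, 69.5, 57.4 and 50.5 TPM in Disp1_CS_INDEL and 59.7, 67.8, 70.8 and 58.7 TPM in Disp1_WT embryos, with the same 3 lowest. Ggps1, which diverts farnesyl diphosphate to the lipid used for protein prenylation, did not share the order, ranging between 19.97 and 21.5 TPM in Disp1_CS_INDEL and between 18.6 and 23.3 TPM in Disp1_WT embryos.

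Enzymes of squalene and of the steps after lanosterol followed the same embryos. Fdft1, squalene synthase, stood at 87.2, 117, 62.6 and 65.4 TPM in Disp1_CS_INDEL and 91.2, 105, 106 and 66.1 TPM in Disp1_WT embryos. Sqle, squalene epoxidase, stood at 76.8, 94.8, 53.8 and 53.2 TPM in Disp1_CS_INDEL and 78.6, 89.2, 85.3 and 56.5 TPM in Disp1_WT embryos. Lss, which closes the rings of lanosterol, stood at 24.2, 29.1, 14.4 and 15.3 TPM in Disp1_CS_INDEL and 25.1, 27.8, 26.7 and 16.1 TPM in Disp1_WT embryos. In all 3 squalene enzymes Disp1_CS_INDEL replicates 3 and 4 and Disp1_WT replicate 4 were lowest, as in 7 of the 8 mevalonate enzymes. Cyp51, the lanosterol demethylase, stood at 97.7, 127, 66.2 and 74.9 TPM in Disp1_CS_INDEL and 104, 124, 115 and 71.7 TPM in Disp1_WT embryos. Msmo1, which oxidises the methyl groups of sterol intermediates, stood at 45.0, 63.7, 30.03 and 33.5 TPM in Disp1_CS_INDEL and 48.7, 63.6, 65.7 and 35.0 TPM in Disp1_WT embryos. Nsdhl, its partner dehydrogenase, stood at 70.5, 90.9, 47.3 and 44.5 TPM in Disp1_CS_INDEL and 74.6, 79.5, 77.3 and 46.2 TPM in Disp1_WT embryos. The same 3 embryos were lowest, and the highest value was in Disp1_CS_INDEL replicate 2 for Cyp51 and Nsdhl and in Disp1_WT replicate 3 for Msmo1. Dhcr7, the reductase that ends synthesis by 1 route, stood at 45.8, 57.4, 29.9 and 31.4 TPM in Disp1_CS_INDEL and 48.1, 50.5, 52.2 and 32.5 TPM in Disp1_WT embryos. Tm7sf2 stood at 9.65, 12.3, 5.99 and 6.44 TPM in Disp1_CS_INDEL and 9.75, 9.47, 10.2 and 6.34 TPM in Disp1_WT embryos. Hsd17b7, the ketoreductase of the same demethylation, stood at 18.0, 20.6, 13.97 and 15.5 TPM in Disp1_CS_INDEL and 16.6, 23.9, 20.5 and 14.7 TPM in Disp1_WT embryos. The 3 low embryos were again lowest for these genes. Sc5d, a desaturase, stood at 18.6, 25.9, 14.5 and 20.6 TPM in Disp1_CS_INDEL and 19.4, 31.7, 25.3 and 19.96 TPM in Disp1_WT embryos, with Disp1_CS_INDEL replicate 3 lowest and its replicate 4 above replicate 1. Ebp, the sterol isomerase, stood at 28.7, 33.0, 28.1 and 28.3 TPM in Disp1_CS_INDEL and 32.8, 28.3, 31.8 and 29.8 TPM in Disp1_WT embryos and varied little.

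Of the regulators, Insig1 and Srebf2 shared the pattern while Scap and Insig2 did not. Insig1, an anchor of SCAP that is itself a target of SREBP2, stood at 75.0, 106, 48.1 and 54.0 TPM in Disp1_CS_INDEL and 81.6, 107, 103 and 56.7 TPM in Disp1_WT embryos. Srebf2, which encodes SREBP2, stood at 142, 144, 102 and 94.3 TPM in Disp1_CS_INDEL and 139, 137, 139 and 104 TPM in Disp1_WT embryos. In both, Disp1_CS_INDEL replicates 3 and 4 and Disp1_WT replicate 4 were lowest. Scap, the escort, stood at 37.8, 35.3, 34.7 and 29.96 TPM in Disp1_CS_INDEL and 36.0, 34.7, 32.2 and 32.9 TPM in Disp1_WT embryos. Insig2, the second anchor, stood at 11.2, 12.2, 10.5 and 11.9 TPM in Disp1_CS_INDEL and 10.99, 12.5, 10.3 and 10.7 TPM in Disp1_WT embryos. Both genes held a narrow range in which the groups overlapped.

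Among the handling genes, Stard4, a soluble sterol carrier, was the one that varied with the enzymes, at 28.0, 33.8, 19.0 and 21.4 TPM in Disp1_CS_INDEL and 25.6, 36.5, 33.1 and 19.8 TPM in Disp1_WT embryos. Npc1, the membrane protein that exports cholesterol from lysosomes, stood at 13.2, 13.0, 11.2 and 10.96 TPM in Disp1_CS_INDEL and 12.1, 10.9, 11.7 and 10.5 TPM in Disp1_WT embryos. Npc2, its soluble partner, stood at 89.2, 98.0, 76.3 and 80.1 TPM in Disp1_CS_INDEL and 92.7, 85.6, 94.8 and 86.6 TPM in Disp1_WT embryos. The groups overlapped in both. Mylip, a ubiquitin ligase that degrades lipoprotein receptors, stood at 8.22, 9.98, 9.91 and 9.30 TPM in Disp1_CS_INDEL and 8.49, 10.9, 8.76 and 9.23 TPM in Disp1_WT embryos, also overlapping. Soat1, which esterifies cholesterol for storage, stood at 18.7, 18.0, 18.7 and 19.3 TPM in Disp1_CS_INDEL and 20.5, 21.9, 19.5 and 19.5 TPM in Disp1_WT embryos, with every Disp1_CS_INDEL value below every Disp1_WT value. Acly, ATP citrate lyase, stood at 315, 306, 251 and 238 TPM in Disp1_CS_INDEL and 291, 303, 282 and 248 TPM in Disp1_WT embryos, with the 3 low embryos again lowest.

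Only Lbr and Soat1 did not overlap between the groups, both lower in Disp1_CS_INDEL embryos (6.67% of the members, against 0.654% of all genes tested). Lbr stood at 100.1, 98.4, 87.3 and 96.9 TPM in Disp1_CS_INDEL and 106, 109.9, 105 and 102 TPM in Disp1_WT embryos. Its log2 fold change was -0.14 ± 0.053 (SE; 95% interval -0.26 to -0.03; adjusted p = 1.00, limma), and that of Soat1 was -0.12 ± 0.061 (interval -0.25 to 0.02; adjusted p = 1.00). Neither passed the adjustment over all genes. The next smallest p-values belonged to Sc5d, with a log2 fold change of -0.26 ± 0.18 (SE; interval -0.67 to 0.14), Idi1 with -0.27 ± 0.20 (interval -0.72 to 0.19) and Msmo1 with -0.32 ± 0.25 (interval -0.86 to 0.23). These 3 intervals include 0.

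**Figure D2:**
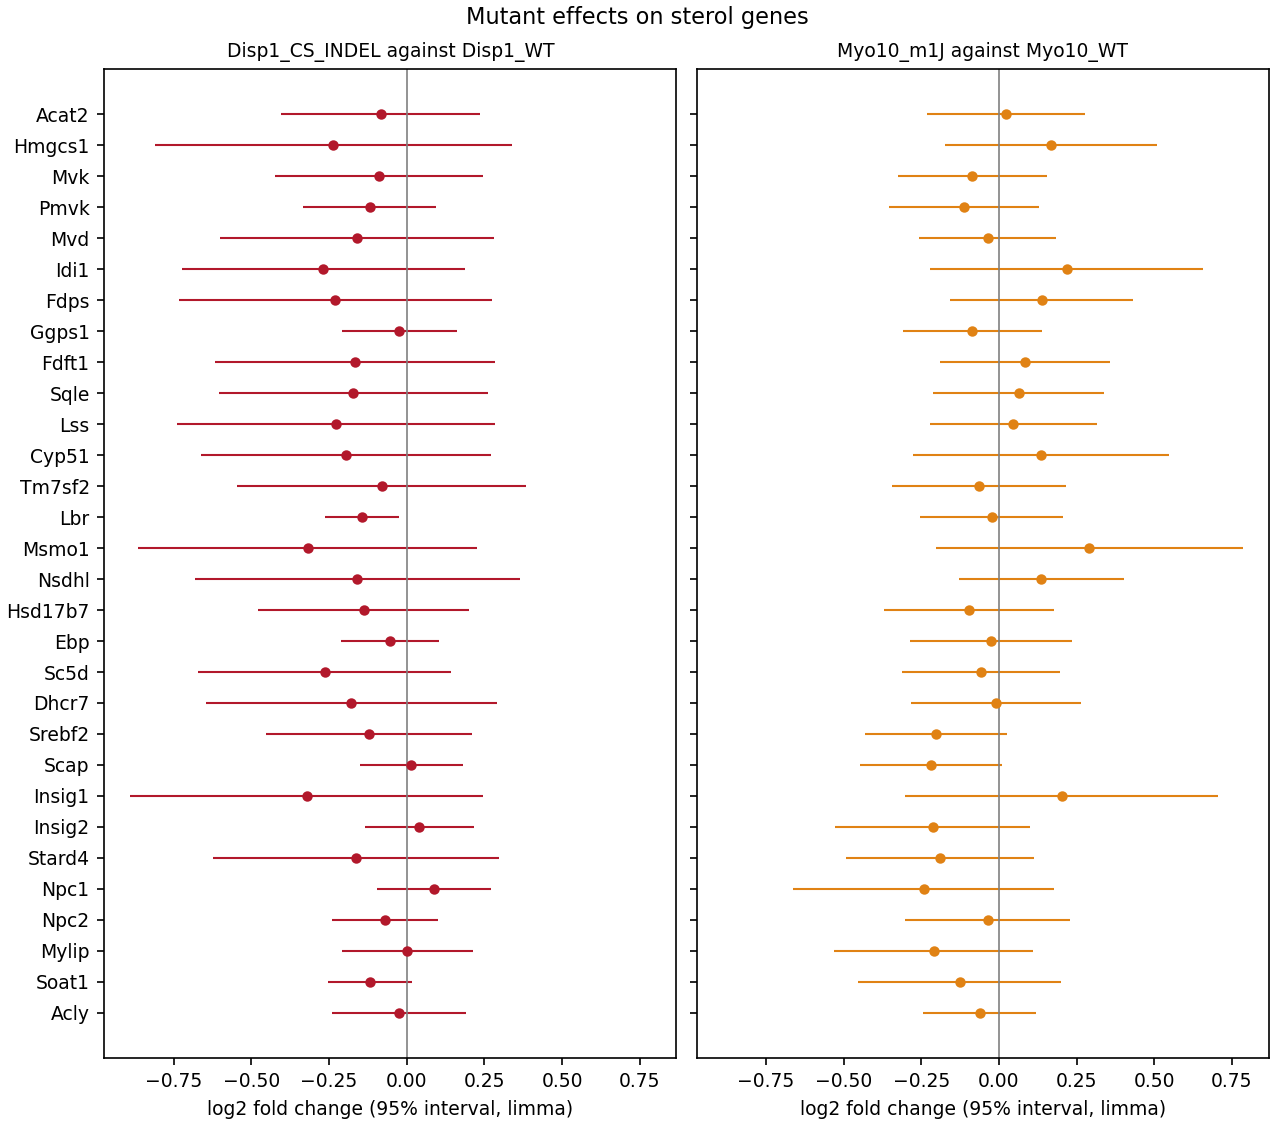
Log2 fold change of each gene with its 95% interval from limma, Disp1_CS_INDEL against Disp1_WT (left) and Myo10_m1J against Myo10_WT (right). Every interval except that of Lbr in the left panel includes 0, and the intervals of Hmgcs1, Msmo1 and Insig1 are among the widest.

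The spread within the E9.5 groups can be set against all genes. The median SD of log2(TPM + 1) over the 20 synthesis genes was 0.41 in Disp1_CS_INDEL and 0.31 in Disp1_WT embryos, against 0.12 and 0.10 over all genes tested in those groups. Summed TPM of the 20 synthesis genes was 1616, 1964, 1157 and 1201 in Disp1_CS_INDEL replicates 1 to 4 and 1644, 1903, 1831 and 1246 in Disp1_WT replicates 1 to 4. The same 3 embryos, Disp1_CS_INDEL replicates 3 and 4 and Disp1_WT replicate 4, were the 3 lowest of the 8 for 16 of the 20 synthesis genes (80%) and 20 of the 30 members (66.7%), against 9.44% of all genes tested. After median-of-ratios scaling, which sets the median gene equal between libraries, this held for 15 of the 20 synthesis genes and 19 of the 30 members, against 4.30% of all genes. The 3 embryos were picked for their low values, so these counts describe them and test nothing.

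Fatty acid synthesis genes, which are driven in part by the sister factor SREBP1, had the same 3 embryos lowest for 11 of 15 genes (73.3%, against 9.44% of all genes), and for 8 of 15 (53.3%, against 4.30%) after median-of-ratios scaling. The primitive erythroid mean (7 genes, all at 1 TPM or more in every E9.5 library, with summed levels of 23522 to 45742 TPM in Disp1_CS_INDEL and 29319 to 39238 TPM in Disp1_WT) was 8.51, 8.09, 8.81 and 8.98 in Disp1_CS_INDEL and 8.36, 8.67, 8.71 and 8.77 in Disp1_WT replicates. It was thus highest in the 3 low embryos, and its part in the result was not tested. Y-linked transcripts were absent from Disp1_CS_INDEL replicate 4 and Disp1_WT replicate 4 and present in the other E9.5 embryos, including the low Disp1_CS_INDEL replicate 3. The embryos with few tail bud transcripts were not among the 3.

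**Figure D3:**
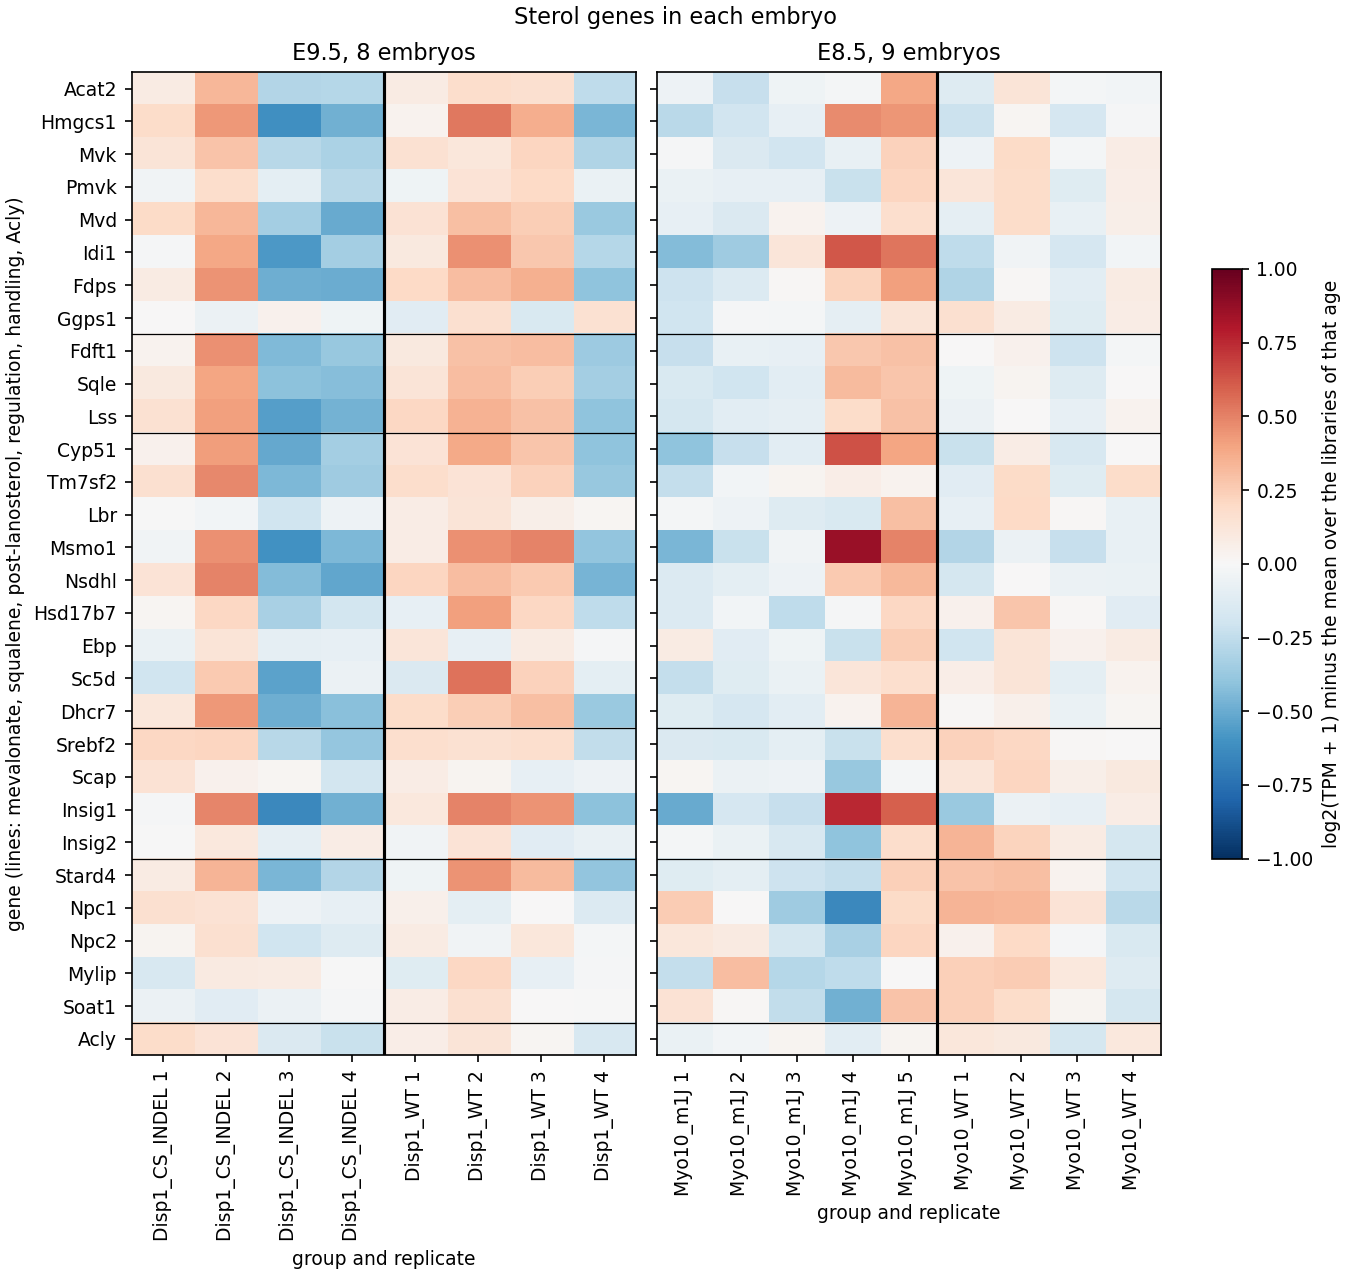
Log2(TPM + 1) of each gene minus its mean over the libraries of the same age, for 8 E9.5 embryos (left) and 9 E8.5 embryos (right); red is above and blue below that mean, and horizontal lines separate the roles. At E9.5 the blue columns are Disp1_CS_INDEL replicates 3 and 4 and Disp1_WT replicate 4, and at E8.5 Myo10_m1J replicate 5 is red for most genes while replicate 4 is red for many enzymes and Insig1 and blue for genes such as Scap, Insig2, Npc1 and Soat1.

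Further genes of lipid metabolism did not pass the test between the Disp1 groups either: 0 of 15 for fatty acid synthesis (13 negative), 0 of 15 for SREBP processing (5 negative), 0 of 19 tested for sterol traffic (9 negative), 0 of 12 for the other branches of mevalonate (9 negative) and 0 of 6 tested for proteins with a sterol-sensing domain (3 negative). After median-of-ratios scaling 13, 9, 10, 9 and 3 genes of these lists were negative. The smallest p-value in the last list belonged to Ptch1, a Hedgehog receptor that is also a Hedgehog target. It averaged 27.0 ± 2.50 TPM in Disp1_CS_INDEL and 37.6 ± 3.96 TPM in Disp1_WT embryos (SD, n = 4 each), a log2 fold change of -0.46 ± 0.088 (SE; adjusted p = 0.339, limma), and it was called lower after scaling (-0.47, adjusted p = 0.048). The lipoprotein receptor Scarb1 averaged 18.6 ± 2.48 TPM in Disp1_CS_INDEL and 21.9 ± 1.80 TPM in Disp1_WT embryos, and Mid1ip1, an activator of fatty acid synthesis, 36.3 ± 6.17 and 43.9 ± 5.75 TPM in those groups.

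At E8.5 none of the 30 genes passed the test between Myo10_m1J and Myo10_WT embryos (limma), against 0.00796% of the 12560 genes tested, and none had an unadjusted p under 0.05, against 6.80% of all genes. Of the members 19 had a negative and 11 a positive fold change, whereas 94% of all genes were negative, with medians of -0.04 for the members and -0.16 for all genes. After median-of-ratios scaling, which moved the median of all genes to 0.01, the member median was 0.15 and 6 members were negative. The direction of the members as a group therefore flips with the scaling, and no direction is given. The member median was -0.09 without Myo10_m1J replicate 5, -0.06 without Myo10_WT replicate 3, -0.02 without either Myo10_m1J replicate 1 or 4, and 0.01 without Myo10_WT replicate 2.

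Of the 5 smallest p-values, Scap was the only member without overlap (3.33% of the members, against 0.963% of all genes lower without overlap). Scap stood at 20.9, 19.7, 19.8, 15.6 and 20.3 TPM in Myo10_m1J replicates 1 to 5 and at 22.4, 24.03, 21.5 and 22.1 TPM in Myo10_WT replicates 1 to 4. Its log2 fold change was -0.22 ± 0.11 (SE; interval -0.45 to 0.01; adjusted p = 0.473, limma) and -0.04 after median-of-ratios scaling. Srebf2 stood at 26.7, 26.5, 27.5, 25.2 and 33.3 TPM in Myo10_m1J and 34.9, 34.2, 29.7 and 29.5 TPM in Myo10_WT embryos, a log2 fold change of -0.20 ± 0.11 (interval -0.43 to 0.03; adjusted p = 0.473). Insig2 stood at 7.61, 7.33, 6.81, 5.59 and 8.83 TPM in Myo10_m1J and 10.0, 9.17, 8.24 and 6.74 TPM in Myo10_WT embryos, a log2 fold change of -0.21 ± 0.14 (interval -0.53 to 0.10). Mylip stood at 6.42, 9.79, 6.16, 6.31 and 7.75 TPM in Myo10_m1J and 9.30, 9.41, 8.36 and 6.97 TPM in Myo10_WT embryos, a log2 fold change of -0.21 ± 0.15 (interval -0.53 to 0.11). Except for Scap these groups overlapped, and the fold changes stand beside the median of -0.16 for all genes. Stard4 stood at 11.2, 11.3, 10.4, 10.2 and 14.6 TPM in Myo10_m1J and 15.1, 15.3, 12.6 and 10.5 TPM in Myo10_WT embryos, a log2 fold change of -0.19 ± 0.14 (interval -0.49 to 0.11).

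In the genes with the largest positive fold changes, the same pair of mutant embryos was highest. Msmo1 had the largest, 0.29 ± 0.23 (SE; interval -0.20 to 0.78; adjusted p = 0.485, limma), with 7.32, 8.79, 10.2, 19.8 and 15.1 TPM in Myo10_m1J replicates 1 to 5 and 8.34, 9.96, 8.76 and 9.87 TPM in Myo10_WT embryos. Idi1 stood at 26.6, 28.1, 39.4, 56.1 and 52.8 TPM in Myo10_m1J and 30.2, 35.2, 32.1 and 35.6 TPM in Myo10_WT embryos. Myo10_m1J replicates 3, 4 and 5 lay above all 4 wild types in both genes, with replicates 4 and 5 highest. Replicates 1 and 2 lay below or within the wild types. Insig1 stood at 18.9, 24.1, 23.1, 46.6 and 41.9 TPM in Myo10_m1J and 20.8, 26.1, 25.6 and 28.7 TPM in Myo10_WT embryos. Hmgcs1 stood at 49.6, 52.5, 56.9, 83.8 and 81.9 TPM in Myo10_m1J and 51.7, 61.1, 53.5 and 59.5 TPM in Myo10_WT embryos. Cyp51 stood at 20.6, 23.3, 25.5, 43.4 and 36.4 TPM in Myo10_m1J and 23.5, 28.97, 24.6 and 27.7 TPM in Myo10_WT embryos. In these 3 as well Myo10_m1J replicates 4 and 5 were the 2 highest of the 9 embryos.

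The order was the same in Fdft1, at 18.9, 21.1, 21.1, 27.1 and 27.6 TPM in Myo10_m1J and 22.3, 23.0, 19.2 and 22.0 TPM in Myo10_WT embryos. Sqle stood at 21.1, 20.4, 21.8, 29.6 and 28.8 TPM in Myo10_m1J and 22.9, 24.04, 21.4 and 23.6 TPM in Myo10_WT embryos. Lss stood at 7.03, 7.43, 7.52, 9.30 and 10.1 TPM in Myo10_m1J and 7.71, 8.09, 7.58 and 8.29 TPM in Myo10_WT embryos. All 3 squalene enzymes thus had Myo10_m1J replicates 4 and 5 on top. Nsdhl stood at 13.2, 13.6, 14.05, 17.7 and 18.6 TPM in Myo10_m1J and 12.8, 14.6, 14.02 and 13.9 TPM in Myo10_WT embryos, and Fdps at 32.3, 33.8, 37.8, 43.8 and 50.1 TPM in Myo10_m1J and 30.2, 37.7, 34.7 and 39.7 TPM in Myo10_WT embryos. Myo10_m1J replicates 4 and 5 were the 2 highest of the 9 embryos for 10 of the 30 members (33.3%): Hmgcs1, Idi1, Fdps, Fdft1, Sqle, Lss, Cyp51, Msmo1, Nsdhl and Insig1, against 0.231% of all genes tested. After median-of-ratios scaling this held for 19 of the 30 (63.3%), against 7.99% of all genes. Within the mutants alone they were the 2 highest for 14 of the 20 synthesis genes (70%), against 1.15% of all genes, and after median-of-ratios scaling for 17 of 20, against 12.1%. These embryos were picked for their high values, and the counts test nothing.

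Other synthesis genes gave that order in part. Acat2 stood at 75.5, 66.5, 76.0, 77.1 and 102 TPM in Myo10_m1J and 71.2, 85.6, 77.0 and 76.5 TPM in Myo10_WT embryos, with replicate 5 alone above the wild types. Dhcr7 stood at 5.81, 5.60, 5.87, 6.58 and 8.34 TPM in Myo10_m1J and 6.47, 6.68, 6.07 and 6.48 TPM in Myo10_WT embryos. Sc5d stood at 8.56, 9.37, 9.72, 11.2 and 11.7 TPM in Myo10_m1J and 10.8, 11.3, 9.49 and 10.5 TPM in Myo10_WT embryos. Replicates 4 and 5 were the 2 highest mutants for both. Mvk stood at 18.4, 16.8, 16.2, 17.6 and 22.0 TPM in Myo10_m1J and 17.9, 21.4, 18.3 and 19.6 TPM in Myo10_WT embryos. Pmvk stood at 21.3, 21.0, 21.1, 19.0 and 26.2 TPM in Myo10_m1J and 24.5, 25.5, 20.5 and 23.4 TPM in Myo10_WT embryos. Mvd stood at 23.4, 22.4, 25.5, 23.95 and 28.0 TPM in Myo10_m1J and 23.3, 28.4, 23.6 and 26.0 TPM in Myo10_WT embryos. In these 3 early enzymes replicate 5 was the highest mutant, and replicate 4 was the lowest for Pmvk and in the middle for Mvk and Mvd. Tm7sf2 stood at 1.93, 2.39, 2.53, 2.63 and 2.54 TPM in Myo10_m1J and 2.21, 2.95, 2.18 and 2.93 TPM in Myo10_WT embryos. Hsd17b7 stood at 7.91, 8.60, 7.21, 8.69 and 10.3 TPM in Myo10_m1J and 9.04, 10.8, 8.83 and 8.05 TPM in Myo10_WT embryos. Ebp stood at 18.2, 15.7, 16.6, 14.6 and 20.5 TPM in Myo10_m1J and 14.8, 18.9, 17.7 and 18.2 TPM in Myo10_WT embryos. The groups overlapped in each of them. Lbr stood at 99.2, 97.3, 91.8, 90.4 and 124 TPM in Myo10_m1J and 94.7, 116, 101 and 95.4 TPM in Myo10_WT embryos, and Ggps1 ranged between 17.3 and 22.0 TPM in Myo10_m1J and between 18.3 and 22.6 TPM in Myo10_WT embryos. Acly stood at 156, 160.4, 167, 152 and 166 TPM in Myo10_m1J and 177, 174, 144 and 176 TPM in Myo10_WT embryos. The groups overlapped in these 3 genes as well.

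Replicate 4 of the mutants was high in the enzymes although it was the lowest mutant library for most of the transcriptome. It was the lowest of the 5 for 76.5% of all genes tested but for 3 of the 20 synthesis genes. Its structural noncoding RNAs made up 44.5% of TPM, against 29.7% to 39.5% in the other E8.5 libraries, and a larger share lowers the TPM of all other genes. Synthesis means on the log2 scale were 4.20, 4.24, 4.32, 4.54 and 4.67 in Myo10_m1J and 4.29, 4.47, 4.29 and 4.40 in Myo10_WT replicates. Primitive erythroid means were 2.32, 6.39, 3.51, 5.82 and 2.12 in Myo10_m1J and 5.24, 3.86, 3.22 and 3.11 in Myo10_WT replicates, so the 2 mutants high in sterol genes had a high and the lowest erythroid mean. Y-linked transcripts were present in replicate 4 and near 0 in replicate 5.

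Most handling genes had another order. Npc1 stood at 18.8, 15.7, 11.99, 9.65 and 18.0 TPM in Myo10_m1J and 20.1, 19.9, 17.3 and 12.8 TPM in Myo10_WT embryos. Npc2 stood at 46.5, 45.8, 37.9, 34.2 and 49.9 TPM in Myo10_m1J and 44.2, 49.5, 42.5 and 38.6 TPM in Myo10_WT embryos. Soat1 stood at 64.4, 58.8, 48.9, 41.3 and 71.2 TPM in Myo10_m1J and 68.7, 66.3, 59.3 and 51.5 TPM in Myo10_WT embryos. Myo10_m1J replicate 4 and Myo10_WT replicate 4 were the lowest of their groups in all 3 genes. Stard4 and the regulators Insig2 and Srebf2 had the same lowest embryos. Mylip did not, being lowest among the mutants in replicate 3 (6.16 TPM, against 6.31 in replicate 4). How many of all genes were lowest in Myo10_WT replicate 4 was not counted. Replicate 4 was also the lowest Myo10_m1J library for 76.5% of all genes tested. After median-of-ratios scaling it was the lowest mutant for 2 of the 30 members (6.67%), against 25.6% of all genes. The visceral yolk sac mean (11 genes, all at 1 TPM or more in every E8.5 library, with summed levels of 723 to 2163 TPM in Myo10_m1J and 838 to 2592 TPM in Myo10_WT) was 6.79, 7.24, 6.10, 5.56 and 6.51 in Myo10_m1J and 7.44, 7.30, 7.05 and 5.83 in Myo10_WT replicates. It was likewise lowest in replicate 4 of each group, and its part in these values was not tested.

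**Figure D4:**
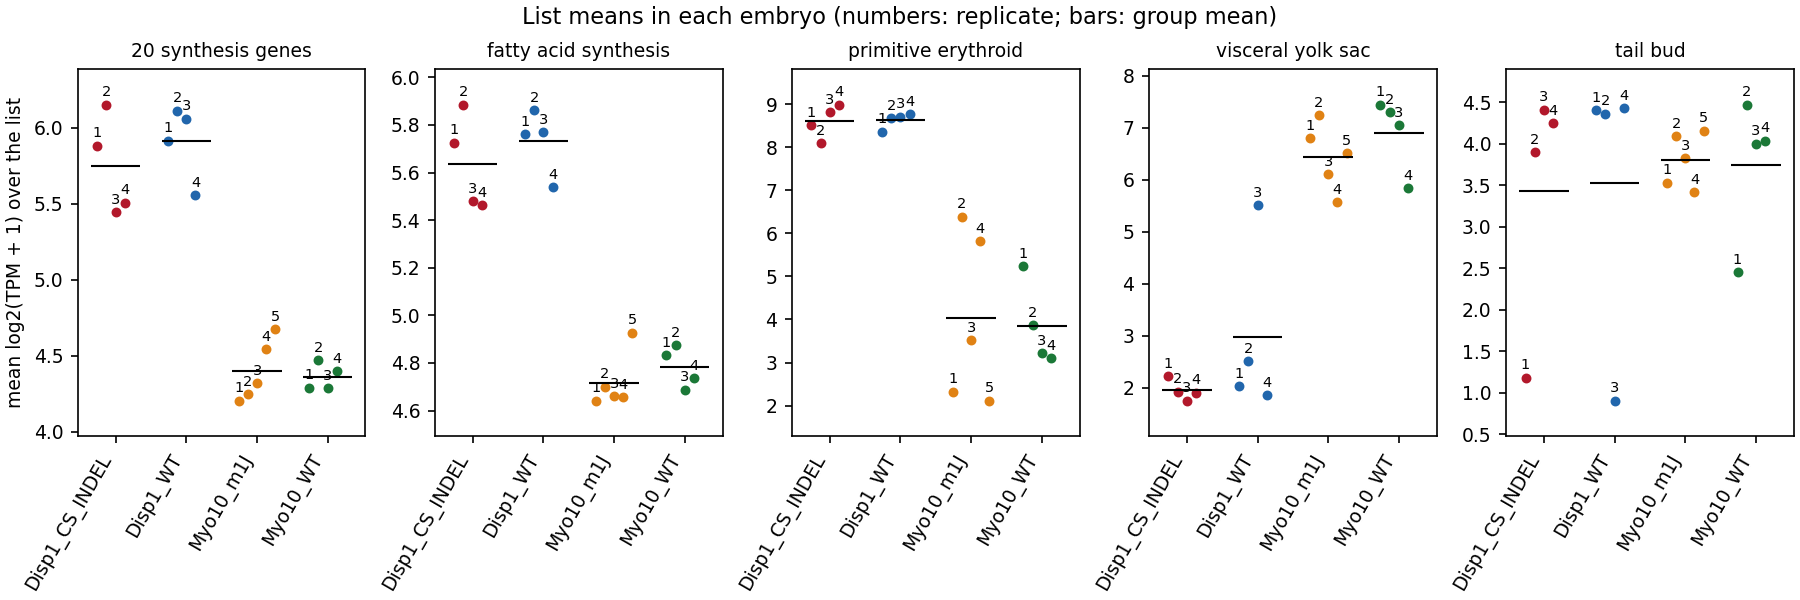
Mean log2(TPM + 1) of 5 gene lists in each embryo (points, numbered by replicate; bars are group means): 20 sterol synthesis genes, fatty acid synthesis, primitive erythroid, visceral yolk sac and tail bud markers. At E9.5 the low embryos for sterol and fatty acid synthesis are Disp1_CS_INDEL replicates 3 and 4 and Disp1_WT replicate 4, and the embryos low in tail bud markers are Disp1_CS_INDEL replicate 1 and Disp1_WT replicate 3.

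In the further lists no gene passed the test between the Myo10 groups: 0 of 15 for fatty acid synthesis (13 negative), 0 of 15 for SREBP processing (15 negative), 0 of 20 for sterol traffic (20 negative), 0 of 12 for the other mevalonate branches (12 negative) and 0 of 5 tested for proteins with a sterol-sensing domain (5 negative). These directions stand beside the 94% of all genes that were negative, and after median-of-ratios scaling 2, 6, 10, 7 and 5 genes of these lists were negative. Lrp1, a lipoprotein receptor, averaged 27.8 ± 5.28 TPM in Myo10_m1J and 41.5 ± 11.2 TPM in Myo10_WT embryos (SD, n = 5 and 4), a log2 fold change of -0.55 ± 0.18 (adjusted p = 0.473, limma). Syvn1, a ubiquitin ligase of the endoplasmic reticulum, averaged 8.52 ± 2.38 TPM in Myo10_m1J and 12.9 ± 3.45 TPM in Myo10_WT embryos, a log2 fold change of -0.56 ± 0.21.

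All 17 embryos entered the test of whether the Disp1 and Myo10 effects differ. None of the 30 members passed (limma), against 0.0216% of the 13910 genes tested, and none had an unadjusted p under 0.05, against 4.95% of all genes. The smallest p-values belonged to Scap, with a difference in log2 fold change of 0.24 ± 0.12 (SE; interval -0.03 to 0.50; adjusted p = 0.586), and to Msmo1 with -0.61 ± 0.37 (interval -1.39 to 0.17). Idi1 followed with -0.49 ± 0.32 (interval -1.16 to 0.19), Insig2 with 0.25 ± 0.17 (interval -0.10 to 0.61) and Npc1 with 0.33 ± 0.24 (interval -0.17 to 0.83). The median difference over all genes was 0.16. After median-of-ratios scaling the values were 0.06 for Scap, -0.79 for Msmo1, -0.67 for Idi1, 0.09 for Insig2 and 0.16 for Npc1. The 2 experiments differ in age, cross and library composition as well as in the mutated gene, which cannot be told apart in this difference.

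Most sterol synthesis genes were higher in the E9.5 wild types than in the E8.5 wild types, and the storage enzyme Soat1 was lower. Of the 30 members 25 rose (83.3%) and 2 fell (6.67%) in Disp1_WT relative to Myo10_WT embryos (limma), against 69.4% and 10.2% of the 13397 genes tested. Calls were thus frequent among all genes as well. The member median was 1.46 on the log2 scale, against 0.62 for all genes. Median-of-ratios scaling took the median of all genes to 0.00 and that of the members to 0.85, with 19 members higher (63.3%) and 6 lower (20%), against 36% and 36.6% of all genes. Age, cross and library composition cannot be told apart: structural noncoding RNAs made up 0.00524% to 0.0113% of TPM in Disp1_WT and 29.7% to 36.9% in Myo10_WT libraries, and histone genes 0.0857% to 0.0940% in Disp1_WT and 7.63% to 8.68% in Myo10_WT. Changes below are given as deposited and after scaling.

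Dhcr7 rose the most, averaging 45.8 ± 9.05 TPM in Disp1_WT and 6.43 ± 0.259 TPM in Myo10_WT embryos (SD, n = 4 each), a log2 fold change of 2.63 ± 0.14 (SE; adjusted p = 4.21e-08, limma) and 1.98 after scaling. Msmo1 averaged 53.2 ± 14.4 TPM in Disp1_WT and 9.23 ± 0.807 TPM in Myo10_WT embryos, a log2 fold change of 2.37 ± 0.18 (adjusted p = 3.78e-07) and 1.70 after scaling. Nsdhl averaged 69.4 ± 15.6 TPM in Disp1_WT and 13.8 ± 0.762 TPM in Myo10_WT embryos, a log2 fold change of 2.22 ± 0.15 and 1.54 after scaling. These 3 late enzymes led the rise under both scalings. Cyp51 averaged 104 ± 22.8 TPM in Disp1_WT and 26.2 ± 2.56 TPM in Myo10_WT embryos, a log2 fold change of 1.92 ± 0.15 and 1.24 after scaling. Tm7sf2 and Sc5d rose by 1.47 and 1.10 on the log2 scale (0.90 and 0.44 after scaling). Hsd17b7 and Ebp rose by 0.95 and 0.79, with 0.30 and 0.11 after scaling, where neither passed. Lbr alone of the late enzymes did not pass as deposited, at 106 ± 3.30 TPM in Disp1_WT and 102 ± 9.68 TPM in Myo10_WT embryos (0.06), and it fell after scaling (-0.64).

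The early pathway rose apart from Ggps1. Log2 fold changes of the 7 other mevalonate enzymes ran from 1.41 for Pmvk to 1.97 for Fdps, and from 0.73 to 1.28 after scaling, all called under both. Hmgcs1 averaged 226 ± 63.2 TPM in Disp1_WT and 56.5 ± 4.55 TPM in Myo10_WT embryos (1.94 ± 0.18; adjusted p = 1.63e-06, limma), and Fdps 145 ± 31.6 and 35.6 ± 4.13 TPM in those groups. Fold changes of the others were 1.76 for Acat2, 1.61 for Mvk, 1.75 for Mvd and 1.91 for Idi1. Ggps1 averaged 21.1 ± 2.54 TPM in Disp1_WT and 20.8 ± 1.79 TPM in Myo10_WT embryos, a log2 fold change of 0.01 ± 0.11 that did not pass, and it fell after scaling (-0.66). The squalene enzymes Fdft1, Sqle and Lss rose by 2.02, 1.69 and 1.46, and by 1.33, 1.01 and 0.80 after scaling. Acly rose by 0.74, with 0.04 after scaling, where it did not pass.

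Regulators split. Srebf2 averaged 129.9 ± 17.2 TPM in Disp1_WT and 32.1 ± 2.84 TPM in Myo10_WT embryos, a log2 fold change of 1.98 ± 0.11 (adjusted p = 4.40e-08, limma) and 1.29 after scaling. Insig1 averaged 87.2 ± 23.3 TPM in Disp1_WT and 25.3 ± 3.30 TPM in Myo10_WT embryos, a log2 fold change of 1.71 ± 0.18 and 1.03 after scaling. Both were called higher under both scalings. Scap averaged 34.0 ± 1.69 TPM in Disp1_WT and 22.5 ± 1.09 TPM in Myo10_WT embryos, a log2 fold change of 0.57 that turned to -0.10 after scaling. Insig2 averaged 11.1 ± 0.954 TPM in Disp1_WT and 8.55 ± 1.41 TPM in Myo10_WT embryos, a log2 fold change of 0.35 (adjusted p = 0.0253) that turned to -0.28, called lower, after scaling. The call of Insig2 as higher was lost without Disp1_WT replicate 1 (adjusted p = 0.0511, log2 fold change 0.36), without Disp1_WT replicate 2 (0.0741, 0.30) or without Myo10_WT replicate 4 (0.0734, 0.25). It was also lost with the Y-linked mean (adjusted p = 0.0848, log2 fold change 0.27) or the yolk sac mean (0.192, 0.43) as a covariate.

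Handling genes went both ways. Soat1 fell, averaging 20.4 ± 1.15 TPM in Disp1_WT and 61.4 ± 7.75 TPM in Myo10_WT embryos, a log2 fold change of -1.54 ± 0.10 (adjusted p = 1.36e-07, limma) and -2.22 after scaling. Npc1 fell as well, averaging 11.3 ± 0.722 TPM in Disp1_WT and 17.5 ± 3.41 TPM in Myo10_WT embryos, a log2 fold change of -0.57 ± 0.14 (adjusted p = 0.00277) and -1.22 after scaling. Npc2 and Stard4 rose by 1.03 and 1.03, with 0.34 (called) and 0.36 (not called) after scaling, and Mylip did not pass (0.12) but was lower after scaling (-0.51). Yolk sac markers fell in 11 of 11 (summed levels of 55.9 to 1003 TPM in Disp1_WT and 838 to 2592 TPM in Myo10_WT). With the yolk sac mean as a covariate Soat1 was still called lower (-1.44, adjusted p = 0.000227), while Npc1 was not (-0.27, adjusted p = 0.405). Yolk sac means were 1.86 to 5.51 in Disp1_WT and 5.83 to 7.44 in Myo10_WT replicates, without overlap. That fit therefore cannot tell the yolk sac share from age, for either gene. Erythroid markers rose in 7 of 7 (summed 29319 to 39238 TPM in Disp1_WT and 276 to 1632 TPM in Myo10_WT), and with their mean as a covariate 12 members were called higher and 1 lower. The member median was then 1.61, against 1.46 without the covariate. Npc1 stood at -1.46 (adjusted p = 0.0646) and Scap at 0.54 (adjusted p = 0.251) in that fit, so calls were lost while these folds were larger or similar in size. Erythroid means were 3.11 to 5.24 in Myo10_WT and 8.36 to 8.77 in Disp1_WT replicates, so that fit cannot tell them from age either. Calls over all genes also moved with the setting. Apart from left-out libraries, the alternatives gave 978 to 10818 genes higher and 650 to 4901 lower, against 9304 and 1364 in the main fit.

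**Figure D5:**
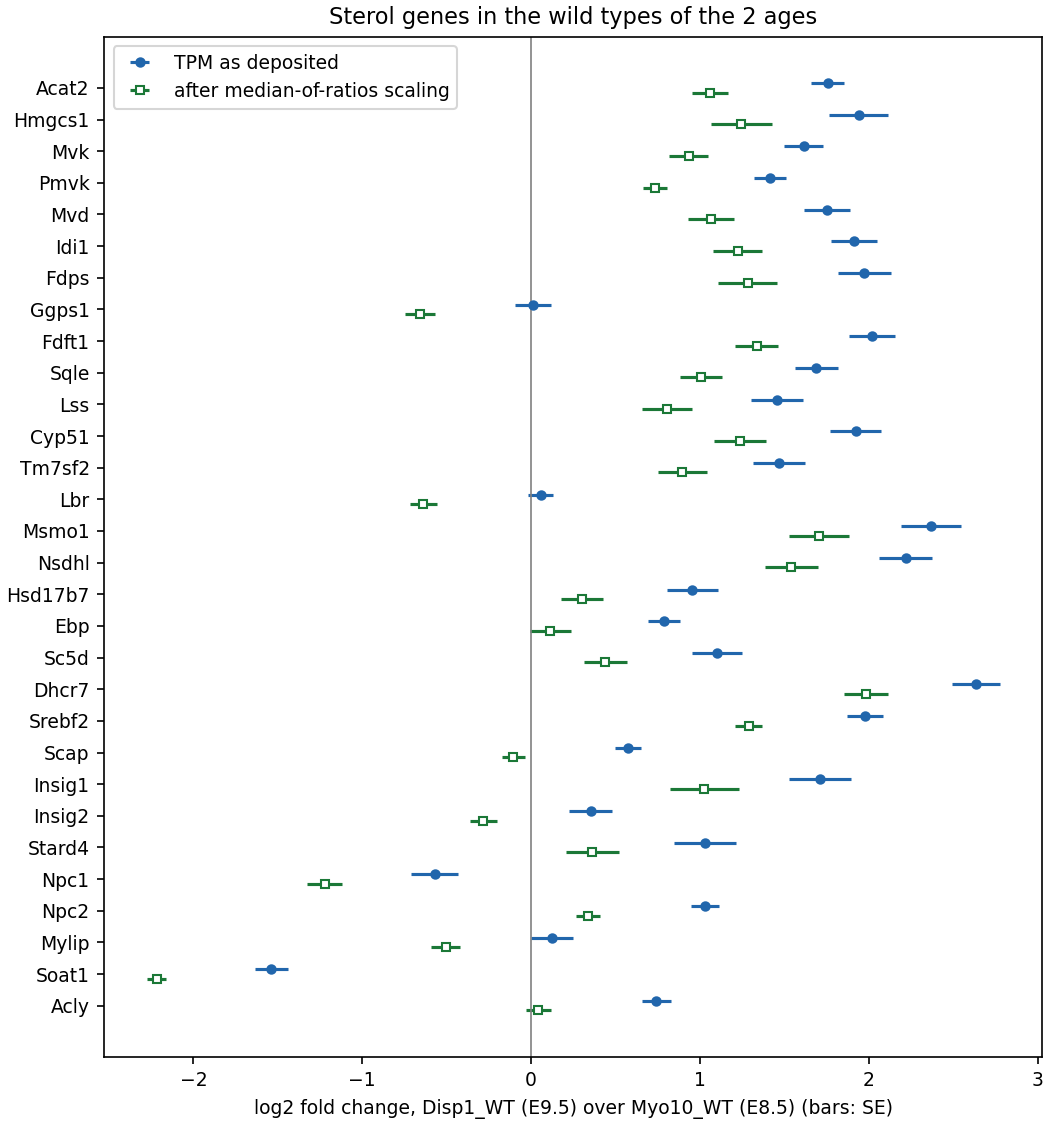
Log2 fold change of each gene between the E9.5 wild types (Disp1_WT) and the E8.5 wild types (Myo10_WT), as deposited (filled circles) and after median-of-ratios scaling (open squares), with bars for the SE. Scaling moves all 30 genes left, Dhcr7 stays furthest right and Soat1 furthest left, and Scap, Insig2, Ggps1, Lbr and Mylip cross 0.

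Genes of other lipid lists were also compared between the ages. Fatty acid synthesis rose in 13 of 15 genes, led by Fads2, a desaturase, with 275 ± 23.3 TPM in Disp1_WT and 68.3 ± 8.94 TPM in Myo10_WT embryos (log2 fold change 2.00 ± 0.10), and Aacs, which activates acetoacetate, with 44.3 ± 9.65 and 11.3 ± 0.983 TPM in those groups. Fasn and Acaca, the synthase and carboxylase at the core of fatty acid synthesis, did not pass, at 198 ± 21.0 and 31.6 ± 2.60 TPM in Disp1_WT and 177 ± 8.36 and 30.5 ± 2.54 TPM in Myo10_WT embryos. SREBP processing rose in 13 of 15 genes, and the other mevalonate branches in 7 of 12. These calls depended on the scaling: after median-of-ratios scaling fatty acid synthesis had 6 higher and 4 lower, with Fads2 (1.30) and Aacs (1.18) still higher and Fasn (-0.55) and Acaca (-0.63) lower. SREBP processing then had 5 higher and 4 lower, and the other mevalonate branches 2 higher and 7 lower. Sterol traffic rose in 10 and fell in 5 of 20 genes, the largest fall being that of Soat2, a relative of Soat1, with 1.86 ± 1.93 TPM in Disp1_WT and 27.7 ± 11.1 TPM in Myo10_WT embryos (log2 fold change -3.41 ± 0.42; adjusted p = 1.90e-05, limma), and after scaling 4 rose and 11 fell. Among the 6 tested proteins with a sterol-sensing domain 4 were called higher, with Disp3, Disp1 and the member Scap among them. The member Npc1 was the only 1 called lower. Disp1 had a log2 fold change of 0.92 ± 0.12, and Ptch1 did not pass (-0.19 ± 0.10). After scaling 2 were still higher, Disp3 (0.80) and Disp1 (0.27), and 2 were lower, Npc1 and Ptch1 (-0.87), while Scap did not pass. These counts stand beside 69.4% of all genes called higher and 10.2% lower as deposited, and 36% and 36.6% after scaling.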

How the data were processed

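RNA of 17 single frozen embryos was extracted with the RNeasy Micro kit, prepared with the TruSeq RNA Sample Prep v2 kit and sequenced on a NovaSeq instrument, per the labels' protocols. The authors deposited 1 table of TPM for 41709 gene symbols. The build was GRCm39, per the submitters' processing notes, and no aligner or quantifier is named in the sources used here. Every column was mapped to a sample by its name. TPM keeps no depth, so counting error is unknown.

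Values were analysed as log2(TPM + 1) with limma 3.58.1 in R 4.3.3 (moderated test with a mean-variance trend). Genes at 1 TPM or more in at least 4 libraries of a fit were tested, and p-values were adjusted by Benjamini-Hochberg over all of them at 0.05. Fold changes on this scale understate changes of low genes. The code was tested on simulated data. The 4 comparisons were each mutant against its wild type, the difference of these effects, and the wild types of the 2 ages. The 30 members and all lists were chosen with earlier results of these data known. Values per embryo are given for members called, without overlap or among the 5 smallest p-values of a comparison, which left Ggps1 to ranges. In the further lists, called genes or at most 3 with the smallest p-values per list could be named. Alternatives were another pseudocount, filter, scaling or trend, RNA classes left out, marker means as covariates, a replicate block, a fit of all 17 libraries and each library left out. Promoters came from RefSeq (GRCm38.p6).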

Additional observations from a re-analysis of the deposited data

Results flagged for a closer look

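Among 120 sets of 1 member in 1 group, 8 had a highest or lowest library far from the rest by Dixon's gap test, and chance alone flags about 1 in 20 such sets. In Myo10_m1J, replicate 5 was high for Lbr (123.8 TPM, others 90.4 to 99.2), Srebf2 (33.3 TPM, others 25.2 to 27.5) and Stard4 (14.6 TPM, others 10.2 to 11.3), and replicate 4 was low for Scap (15.6 TPM, others 19.7 to 20.9). In Disp1_WT, replicate 4 was low for Nsdhl (46.2 TPM, others 74.6 to 79.5) and Srebf2 (104.03 TPM, others 137 to 139). Ebp was high in Disp1_CS_INDEL replicate 2 (33.0 TPM, others 28.1 to 28.7), and Acly was low in Myo10_WT replicate 3 (144 TPM, others 174 to 177).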

How the results depend on the processing

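No member was called in either mutant comparison or in their difference under any alternative run. In the Myo10 comparison, median-of-ratios scaling gave 6 negative members and a median of 0.15, and leaving out structural RNAs gave 9 negative. In the age comparison, median-of-ratios scaling gave 6 lower calls, 7 negative members, a median of 0.85, Scap at -0.10 and Insig2 at -0.28. Leaving out structural RNAs gave 5 lower, 7 negative, a median of 0.97, Scap at -0.00153 and Insig2 at -0.19. The erythroid covariate gave 12 higher, 1 lower, 5 negative and Insig2 at -0.52, with a median of 1.61, and the yolk sac covariate gave 1 lower and a median of 1.71. Over all genes, the alternatives other than left-out libraries gave 978 to 10818 higher and 650 to 4901 lower, against 9304 and 1364 in the main fit. The cause was not tested.

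With each library left out in turn, the member median ranged from -0.24 to -0.05 (23 to 28 negative) for Disp1, -0.09 to 0.01 (14 to 21) for Myo10, -0.16 to -0.01 (16 to 25) for their difference and 1.40 to 1.62 (24 to 25 higher, 2 lower) for age. Replicate numbers did not pair the embryos: 2, 2 and 3 of 8 libraries correlated best with their own number in the Disp1, Myo10 and age comparisons. With the replicate block 0 members were called in both mutant comparisons and their difference, with medians of -0.14, -0.09 and -0.01, and 25 rose and 2 fell with age (median 1.46). Chosen after seeing the data, leaving out the 2 E9.5 embryos low in tail bud transcripts gave medians of -0.14 for Disp1 and -0.07 for the difference. Embryos with Y-linked transcripts alone gave -0.17 for Disp1. The same selection leaves 1 wild type in the Myo10 comparison and is not read there.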
